A study of Mus musculus with 6 samples.

Results

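The genes described here were the 37 mouse genes that encode the main parts of tight junctions, desmosomes and simple epithelial keratins, with the catenins that tie junctions to the cytoskeleton. They were chosen by name and not by a rule on any measured value, but with earlier results of these data known. They make up 37 of the 22359 protein-coding genes of the mm9 annotation used. By role they were 17 claudins, 6 other tight junction genes, 7 desmosome genes, 4 keratins and 3 catenins. For each gene, all ATAC-seq peaks were taken that overlapped its body or the 10 kb on either side. A peak within 1 kb of an annotated start of a coding transcript was called a start-site peak, and any other was called an other peak.

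Tight junctions seal the space between neighbouring epithelial cells, and claudins form their strands, with occludin, tricellulin and JAM-A beside them and the ZO proteins and cingulin on the inner face. Desmosomes join cells mechanically: desmosomal cadherins are held by plakoglobin and plakophilins to desmoplakin, which anchors the keratin filaments. Catenins bind the tails of classical cadherins at adherens junctions, and β-catenin also carries the Wnt signal. Different epithelia use different sets of claudins and keratins, so an epithelial cell is not known to use all of these genes.

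ATAC-seq, in which Tn5 transposase cuts and tags open chromatin, was carried out in duplicate on 3 mouse cell lines that express Pax6 to different degrees. Pax6-HIGH cells were β-TC3, an insulinoma (pancreatic β cell tumour) line. Pax6-ON cells were MV+, from the lens epithelium of a wild-type C57BL6 mouse, and Pax6-OFF cells were RAG, from a renal adenocarcinoma of a BALB/c mouse. All were grown in the same medium, and the labels give no treatment. Each condition is thus 1 tumour or tissue line of its own origin, and Pax6 level, tissue, strain and tumour state cannot be told apart. The nuclei of MV+ cells were made with 0.2% NP40 and those of the other lines with 0.1%, a difference that cannot be told apart from the line either. Both replicates were pooled in 1 peak call per line, so no value below has a replicate error and no difference between lines was tested.

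The calls held 28024 peaks in β-TC3, 9821 in MV+ and 14022 in RAG, from 100254099, 130955836 and 102223606 fragments. The lowest pileup of a called peak, that is, the number of fragments over its summit, was 25 in β-TC3, 30 in MV+ and 25 in RAG. A gene with no peak therefore had no site called at this depth and is not shown to be closed. In these bulk samples, fewer cells with an open site and less opening per cell cannot be told apart. Because the lines differ so much in their number of peaks, the counts over all members are given beside the share of all protein-coding genes with such a peak in the same line, and again with the 9821 peaks of highest pileup of each line. Start-site peaks were called at Pax6 in β-TC3 and MV+ and not in RAG. Of 10 β cell markers, 5 had a start-site peak in β-TC3, 3 in MV+ and 1 in RAG, but the defining genes Ins1, Ins2, Iapp and Pdx1 had none in any line. Of 9 lens markers, the same 3 (Maf, Pax6 and Prox1) had one in MV+ and in β-TC3 and 2 had one in RAG, with none at Cryaa, Foxe3 or Pitx3 in any line, so this list did not set MV+ apart. Of 10 kidney tubule markers, 3 had one in RAG (Cdh16, Emx2 and Pax2), 1 in β-TC3 and 1 in MV+.

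Sequences at some of the members' peaks are shown before the counts. All are the plus strand of NCBIM37, the assembly known as mm9, and are written 5′ to 3′ around a peak summit, with stretches annotated as UTR left out. Capitals mark exact matches to the letters searched on both strands: GGGCGG or its complement CCGCCC (bound by SP and KLF factors), TGANTCA (AP-1) and CACCTG (an E-box). Jup and Ctnnb1 are shown because only they had a start-site peak in all 3 lines, Cldn1 because its start-site peak was called in β-TC3 alone, and F11r because its start-site peak was missing in the line with most peaks.
Jup start site, chr11:100259105-100259224, β-TC3 summit: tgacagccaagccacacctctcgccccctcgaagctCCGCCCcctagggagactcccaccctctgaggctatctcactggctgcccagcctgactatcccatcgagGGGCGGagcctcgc
Ctnnb1 start site, chr9:120842454-120842517, RAG summit: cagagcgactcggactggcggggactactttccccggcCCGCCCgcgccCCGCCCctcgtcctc
Cldn1 start site, chr16:26371640-26371712, β-TC3 summit in the coding part of an exon: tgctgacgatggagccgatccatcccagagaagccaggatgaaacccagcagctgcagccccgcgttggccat
F11r start site, chr1:173367550-173367665, MV+ summit: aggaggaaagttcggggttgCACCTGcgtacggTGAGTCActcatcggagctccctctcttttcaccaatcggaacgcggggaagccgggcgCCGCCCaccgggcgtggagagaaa
The Jup and Ctnnb1 stretches each hold a pair of SP/KLF matches, and the Cldn1 stretch holds none of the letters searched. The F11r stretch holds AP-1, E-box and SP/KLF letters that do not overlap. The wider window around the Cldn1 summit, used for the motif counts below, held E-box letters outside the printed stretch. In such windows SP/KLF letters were common, at 72.5% of all start-site peaks in β-TC3, 76.5% in MV+ and 77.9% in RAG. A match is a description of the letters and not of a bound factor.

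A further 3 sequences come from introns. Each is the site of the strongest member peak of 1 line that lay at no gene's start, and capitals mark the same letters.
Jup intron, chr11:100252466-100252585, β-TC3 summit: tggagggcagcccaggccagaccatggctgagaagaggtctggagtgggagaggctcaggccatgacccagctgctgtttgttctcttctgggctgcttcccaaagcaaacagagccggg
Pkp2 intron, chr16:16224759-16224878, MV+ summit: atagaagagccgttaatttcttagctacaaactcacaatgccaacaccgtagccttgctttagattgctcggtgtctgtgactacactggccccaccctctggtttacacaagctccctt
Ocln intron, chr13:101286716-101286835, RAG summit: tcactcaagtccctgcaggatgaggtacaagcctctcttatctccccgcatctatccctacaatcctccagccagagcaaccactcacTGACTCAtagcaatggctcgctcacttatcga
Only the Ocln stretch holds a match, an AP-1 site close to its summit.

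Start-site peaks were called at few of the junction and keratin genes. In β-TC3, 10 of 37 had one (27.0%), beside 45.9% of all protein-coding genes. In MV+, 3 of 37 had one (8.11%), beside 21.2% of all genes, and in RAG 9 of 37 (24.3%), beside 35.7%. The share of members was below the background in each of the 3 lines. The 17 claudins weighed most on it, with 2 in β-TC3, 0 in MV+ and 1 in RAG. In RAG, 3 of the 6 other tight junction genes and 2 of the 3 catenins had one. Desmosome genes had 2 of 7 there and keratins 1 of 4. In RAG the shortfall was thus not shared by the catenins or the other tight junction genes. In β-TC3 and MV+ only the catenins, with 3 of 3 and 1 of 3, stood above the background. The other tight junction genes had 2 of 6 and 1 of 6 there, below it. With the 9821 peaks of highest pileup, the β-TC3 count dropped to 1, Cldn12 (2.70%, beside 27.1% of all genes). In RAG it dropped to 4, namely Cldn12, Ctnnb1, Jup and Pkp2 (10.8%, beside 29.2%), and in MV+, whose call holds just that number, it stayed at 3 (8.11%, beside 21.2%). Thus the higher counts in β-TC3 and RAG came from peaks of middling or low pileup.

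Other peaks, in introns, exons and flanks, were not scarce in the same way. They were called near 17 of 37 members in β-TC3 (45.9%, beside 38.7% of all genes), near 4 in MV+ (10.8%, beside 14.0%) and near 11 in RAG (29.7%, beside 24.2%). With equal numbers of peaks the counts were 7 in β-TC3 (18.9%, beside 16.5%), 4 in MV+ (10.8%, beside 14.0%) and 6 in RAG (16.2%, beside 17.0%). These shares lay close to the background, and many of the peaks belonged to neighbours: of the distinct other peaks, 8 of the β-TC3 set, 2 of the MV+ set and 8 of the RAG set lay at the start site of another protein-coding gene, and 17, 1 and 8 did not.

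**Figure D1:**
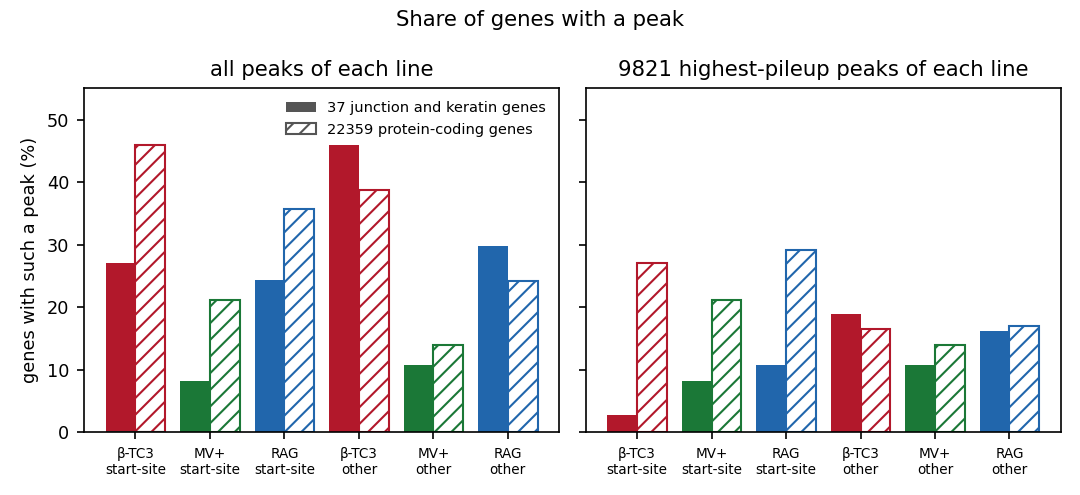
Share of genes with a start-site or other peak in each cell line (y axis, percent), for the 37 junction and keratin genes (filled bars) and all 22359 protein-coding genes (hatched bars), with all peaks (left) and with the 9821 highest-pileup peaks of each line (right). Filled start-site bars stand below the hatched ones in all lines in both panels, whereas the bars for other peaks are of similar height. On the left they run from 27.0% beside 45.9% in β-TC3 to 8.11% beside 21.2% in MV+ for start-site peaks. On the right the start-site bars run from 10.8% beside 29.2% in RAG to 2.70% beside 27.1% in β-TC3.

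The members were spread over several patterns across the lines. Start-site peaks in all 3 lines were found at 2 members, Ctnnb1 and Jup, where 17.3% of all genes had that pattern. The pattern of β-TC3 and RAG without MV+ held 5 members, Cgn, Cldn12, Ctnna1, Pkp2 and Tjp1 (background 15.4%). A start-site peak in β-TC3 alone was called at 3 members, Cldn1, Ctnnd1 and Dsg2 (background 10.9%), in RAG alone at 1, Krt18 (2.50%), and in MV+ and RAG without β-TC3 at 1, F11r (0.546%). No member had one in MV+ alone (1.06%) or in β-TC3 and MV+ without RAG (2.27%). The remaining 25 members had no start-site peak in any line, a pattern of 50.0% of all genes, and 15 of them had no peak of either kind, beside 32.6% of all genes. All 3 MV+ start-site peaks of members were shared with RAG. Such sharing was common over all genes. Of 4740 genes with a start-site peak in MV+, 3873 had one in all 3 lines and 122 in MV+ and RAG only. The patterns that no member had are rare over all genes, so their absence is not read as a result.

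**Figure D2:**
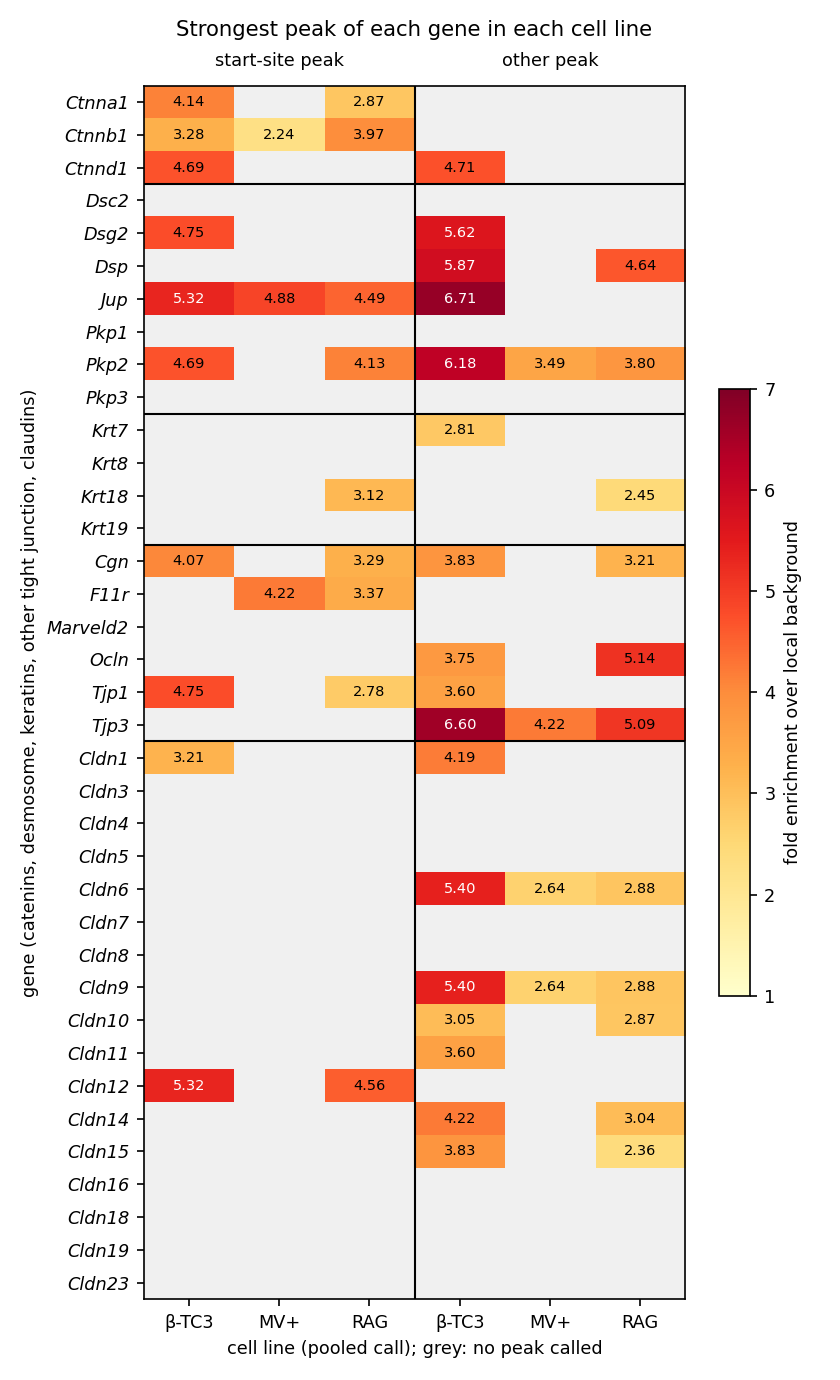
Strongest start-site peak (left block) and strongest other peak (right block) of each of the 37 genes (rows, by role) in each cell line (columns); colour and printed number give fold enrichment over the local background, and grey marks no called peak. Jup and Ctnnb1 fill all 3 start-site columns, F11r fills MV+ and RAG only, and most claudin rows are grey.

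Regions were counted as shared where their peaks overlapped by 1 bp or more. The members' peaks formed 44 distinct regions, 12 at start sites and 32 elsewhere. Of the start-site regions, 3 were called in β-TC3 alone, 1 in RAG alone, 5 in β-TC3 and RAG, 1 in MV+ and RAG and 2 in all lines. Of the other regions, 16 were called in β-TC3 alone, 7 in RAG alone, 6 in β-TC3 and RAG and 3 in all lines. Thus 8 of the 12 start-site regions (66.7%) and 9 of the 32 other regions (28.1%) were seen in more than 1 line. The same shares over all protein-coding genes were 66.0% of 8926 start-site regions and 20.8% of 14576 other regions. Among shared start-site regions, summits lay closest together at Cgn (8 bp apart) and Pkp2 (11 bp) and farthest apart at Cldn12 (412 bp).

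Catenins had the most start-site peaks for their number: all 3 in β-TC3, 1 of 3 in MV+ and 2 of 3 in RAG. The shares over all genes, for this and each role below, were 45.9% in β-TC3, 21.2% in MV+ and 35.7% in RAG. With so few genes per role, no difference of a role from these shares was tested. Ctnnb1 encodes β-catenin, which joins cadherins to α-catenin and acts in Wnt signalling. Its summit pileup was 41 fragments in β-TC3, 33 in MV+ and 46 in RAG, and the fold enrichment, the pileup over the local background of the same line with 1 added to both, was 3.28, 2.24 and 3.97. The MV+ peak was the weakest of the members' start-site peaks and lay at percentile 0.581 of all 4304 start-site peaks of MV+. All 3 peaks lay at an inner start of the gene, far from the outermost one (4009 bp in β-TC3, 4091 bp in MV+ and 4057 bp in RAG), so counting the outermost start alone would leave Jup as the single member with a start-site peak in every line.

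Ctnna1 encodes α-catenin, which links the complex to actin. Its start-site peak had 52 fragments and a fold enrichment of 4.14 in β-TC3, and 33 fragments and 2.87 in RAG, where it stood at percentile 7.28. In MV+ the nearest peak to its outermost start was 1440981 bp away, the longest such distance of any member. Ctnnd1 encodes p120 catenin, which keeps cadherins at the membrane. It had a start-site peak in β-TC3 alone, with 59 fragments (95% Poisson interval 44.9 to 76.1, counting error only, as for all such intervals given here). Its fold enrichment was 4.69, and the caller's q-value, on the −log10 scale, was 19.7. A further intronic peak, also in β-TC3 alone, had 64 fragments and a fold enrichment of 4.71. In MV+ and RAG the nearest peak to the start of Ctnnd1 was 27089 and 27038 bp away.

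Of the 7 desmosome genes, 3 had a start-site peak in β-TC3, 1 in MV+ and 2 in RAG. Jup encodes plakoglobin, a catenin found in both desmosomes and adherens junctions. Its start-site peak had 67 fragments in β-TC3, 73 in MV+ and 69 in RAG, with fold enrichments of 5.32, 4.88 and 4.49. These lay at percentiles 60.1, 61.0 and 51.6 of the start-site peaks of their lines, so Jup was the one member whose peak stood above the middle of the range in every line. In β-TC3 alone, an intronic peak 6537 bp inside Jup was stronger, with 94 fragments, a fold enrichment of 6.71 and percentile 95.2 among the peaks of that line that lay near genes and at no start site. It was the highest fold enrichment of all the members' peaks within 10 kb.

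Dsg2 encodes desmoglein 2, the desmosomal cadherin of simple epithelia. All its peaks within 10 kb were in β-TC3: 1 start-site peak, of 60 fragments (45.8 to 77.2) and fold enrichment 4.75, and 4 other peaks. Of these, the strongest lay in an intron 33959 bp from the nearest start, with 74 fragments (58.1 to 92.9) and a fold enrichment of 5.62. The others had fold enrichments of 4.68 downstream, 3.05 upstream and 2.42 in an intron. With 5 peaks in 1 line, Dsg2 had more than any other member. In MV+ the nearest peak to its outermost start was 188015 bp away. In RAG, 5 peaks lay beyond the 10 kb limit, with summits 14334 to 21614 bp past the end of the gene and fold enrichments of 2.70 to 4.05, in a stretch where β-TC3 also had peaks, so RAG chromatin near Dsg2 was not without peaks. Dsc2, which encodes the desmocollin that pairs with it and lies on the same chromosome, had no peak in any line.

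Pkp2 encodes plakophilin 2, which recruits desmoplakin to the plaque. It had start-site peaks in β-TC3 (59 fragments, fold enrichment 4.69) and RAG (48 and 4.13), with summits 11 bp apart, and none in MV+. An intronic site, 11296 bp from the start by its β-TC3 summit, was called in all lines, with 69 fragments in β-TC3, 52 in MV+ and 44 in RAG and fold enrichments of 5.47, 3.49 and 3.80. It was the only site inside a member gene, other than a start site, that every line shared, and the only MV+ peak of the members that lay at no start site at all. A second intronic peak, in β-TC3 alone, had 78 fragments and a fold enrichment of 6.18, at percentile 91.9. For Pkp2 the chromatin of MV+ was thus called open within the gene without a peak at its start.

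The desmoplakin gene Dsp had no start-site peak in any line. Its peaks in β-TC3 (80 fragments, fold enrichment 5.87) and RAG (54 and 4.64) lay 6320 and 6362 bp downstream at the start of the neighbouring gene Snrnp48. Pkp1 and Pkp3, which encode the other plakophilins in the set, had no peak within 10 kb.

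Keratins had few peaks. Krt8 and Krt18 encode the partner keratins of simple epithelia and lie side by side on chromosome 15. Krt18 had a start-site peak in RAG alone, with its summit on the annotated start, 36 fragments (25.2 to 49.8), a fold enrichment of 3.12 and percentile 12.9 of the RAG start-site peaks. A weaker RAG peak of 37 fragments and fold enrichment 2.45 lay 10072 bp upstream by its summit and overlapped the 10 kb limit by its edge only. No other line had a peak within 10 kb of Krt18. Krt8 and Krt19 had none in any line, and Krt7 had an intronic peak of 35 fragments and fold enrichment 2.81 in β-TC3.

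Among the 6 tight junction genes that are not claudins, 2 had a start-site peak in β-TC3, 1 in MV+ and 3 in RAG. F11r encodes the adhesion molecule JAM-A. It was the one member with a start-site peak in MV+ and RAG and none in β-TC3, with 63 fragments (48.4 to 80.6) and a fold enrichment of 4.22 in MV+, and 39 (27.7 to 53.3) and 3.37 in RAG. The summits lay 56 and 94 bp upstream of the start, and the nearest β-TC3 peak to the start was 25779 bp away. The AP-1 letters printed above were found in 5.41% of the MV+ and 4.19% of the RAG start-site peaks, within the 300 bases around the summit, and the E-box letters in 13.9% and 16.2%.

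Tjp1, the gene of the scaffold ZO-1, had a start-site peak of 61 fragments and fold enrichment 4.75 in β-TC3 and of 32 fragments and 2.78 in RAG, the latter at percentile 5.78. An intronic Tjp1 peak in β-TC3 alone had 45 fragments and a fold enrichment of 3.60. Cgn encodes cingulin, which links the junction to actomyosin. Its start-site peak had 51 fragments and a fold enrichment of 4.07 in β-TC3, and 38 and 3.29 in RAG. A further Cgn peak in β-TC3 alone, 10065 bp upstream by its summit, had 32 fragments and a fold enrichment of 2.58. The Cgn start-site window was the only one of the members to hold the Grainyhead (GRHL) letters AACCNGTT, in both lines, where 1.25% of the start-site peaks of each line held them. In MV+ the nearest peak to the outermost start of Cgn was 167405 bp away, and that of Tjp1 109113 bp.

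Ocln, which encodes occludin, had no start-site peak in any line. In RAG alone, 2 intronic peaks were called, the stronger with 67 fragments (51.9 to 85.1), a fold enrichment of 5.14 and percentile 86.2, and the weaker with 36 fragments and 2.55. Both windows held AP-1 letters, which 28.9% of all RAG peaks near genes but at no start site held. The remaining Ocln peak, shared by β-TC3 and RAG, lay at the start of Gtf2h2. Tjp3 (ZO-3) had peaks in every line, with fold enrichments of 6.60, 4.22 and 5.09, but these lay at the start of Pip5k1c and missed the Tjp3 start-site window, their nearest edges being 1360, 1328 and 1293 bp from its start. Marveld2, the gene of tricellulin, which seals the corners where cells meet, had no peak.

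Of the 17 claudins, 2 had a start-site peak in β-TC3, none in MV+ and 1 in RAG. Cldn12 was the strongest, with 128 fragments (107 to 152) and a fold enrichment of 5.32 in β-TC3, and 53 (39.7 to 69.3) and 4.56 in RAG. It had the highest pileup of any member peak and was the only start-site peak to stay in the equal-number set of β-TC3. Cldn1, a claudin of the skin barrier, had a start-site peak in β-TC3 alone, of 43 fragments (31.1 to 57.9), fold enrichment 3.21 and percentile 16.9. A second β-TC3 peak, of 56 fragments and fold enrichment 4.19, lay near the other end of the gene. The nearest peak to the Cldn1 start was 28855 bp away in MV+ and 28812 bp in RAG.

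Other peaks near claudins were of middling or low strength or lay at the starts of neighbours. Cldn14, a claudin of the inner ear and kidney, had an intronic region called in β-TC3 (53 fragments, fold enrichment 4.22) and RAG (35 and 3.04). The β-TC3 peak there stood at percentile 67.8 of its line. Each of those lines had a further Cldn14 peak of its own, with 42 fragments and a fold enrichment of 3.36 in β-TC3 and 31 and 2.70 in RAG. Cldn10, which forms ion-selective pores, had an intronic peak of 38 fragments in β-TC3 and separate ones of 30 and 33 fragments in RAG. Cldn11, a claudin of myelin, had a peak of 45 fragments and fold enrichment 3.60 in β-TC3, 4061 bp upstream. Cldn6 and Cldn9 are neighbours and were assigned the same peaks: 3 in β-TC3, 1 in MV+ and 2 in RAG. All but 1 lay at the starts of Hcfc1r1 and Thoc6 or of Tnfrsf12a, and the exception was a β-TC3 peak of 44 fragments and fold enrichment 3.52 in an exon of Cldn6. Cldn15 peaks lay at the start of Fis1.

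No peak within 10 kb was called at 9 claudins: Cldn3, Cldn4, Cldn5, Cldn7, Cldn8, Cldn16, Cldn18, Cldn19 and Cldn23. This set includes Cldn16 and Cldn19, the paired magnesium-pore claudins of the kidney, in the RAG line as in the others, and Cldn5, the claudin of vessel walls.

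**Figure D3:**
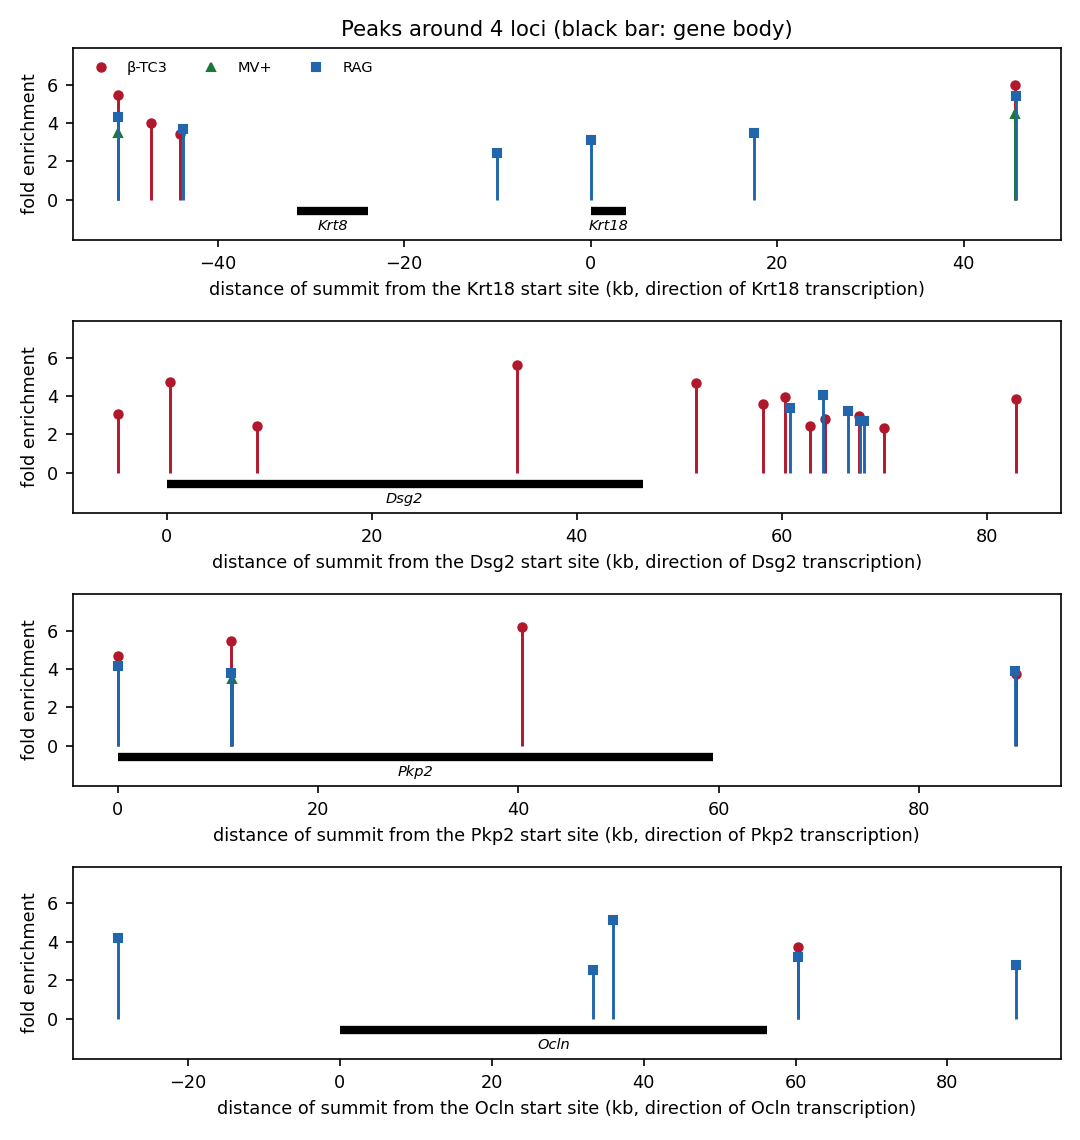
Fold enrichment of peaks (y axis) by the distance of the summit from the outermost start of Krt18, Dsg2, Pkp2 and Ocln (x axis, kb, in the direction of transcription), for β-TC3 (circles), MV+ (triangles) and RAG (squares), out to 50 kb beyond the gene or, in the top panel, beyond Krt8 or Krt18. Within 10 kb of Dsg2 all 5 peaks are from β-TC3, the intronic peaks of Ocln are from RAG alone, and the Pkp2 intron site nearest the start is from all lines.

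The start-site peaks that were called were of ordinary or low strength. Their median fold enrichment was 4.69 in β-TC3, beside 4.84 for all 9803 start-site peaks of that line, and it was 4.22 beside 4.22 in MV+. In RAG it was 3.37 beside 4.45. The median pileups were 59 beside 77 in β-TC3, 63 beside 64 in MV+ and 39 beside 56 in RAG. Among the 9 RAG peaks, only Cldn12 and Jup stood above the median of the line. No member reached the 75th percentile of the start-site peaks of any line, which was 6.09 in β-TC3, 5.93 in MV+ and 5.67 in RAG.

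**Figure D4:**
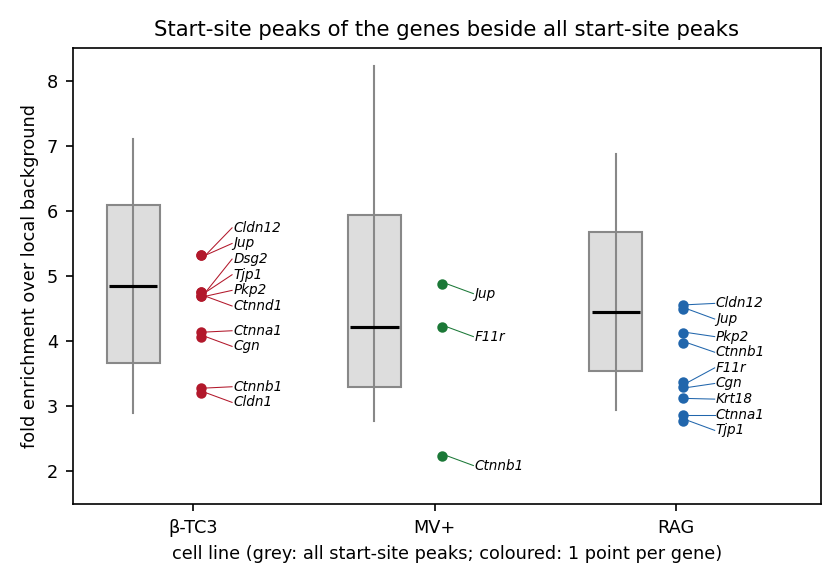
Fold enrichment (y axis) of the start-site peaks of members (coloured points, 1 per gene) beside all start-site peaks of the same line (grey box, 25th to 75th percentile; line through it, 10th to 90th; black bar, median). The members' highest values are 5.32 in β-TC3, 4.88 in MV+ and 4.56 in RAG, all below the top of the grey boxes.

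The promoters of the members held fewer CpG-rich starts than those of all genes. With a CpG observed-to-expected ratio of at least 0.6 in the 1 kb around the outermost start, 14 of 37 members (37.8%) were CpG-rich, beside 45.6% of all genes. Among CpG-rich genes, 7 of 14 members had a start-site peak in β-TC3 (50%, beside 77.5% of all CpG-rich genes), 1 in MV+ (7.14%, beside 36.9%) and 6 in RAG (42.9%, beside 64.0%). Among CpG-poor genes, 3 of 23 members had one in β-TC3 (13.0%, beside 19.3%), 2 in MV+ (8.70%, beside 8.00%) and 3 in RAG (13.0%, beside 12.0%). By this class, the gap to the background was larger at CpG-rich starts, where Jup was the only member with a peak in MV+. Ctnnb1 counted as CpG-poor by its outermost start (ratio 0.401) and had a start-site peak in every line. Those peaks lay at an inner start, 4009 to 4091 bp from the outermost one, and that start was not classed. The CpG-rich members with no start-site peak in any line were Cldn3, Cldn6, Cldn23, Dsp, Marveld2, Ocln and Pkp1.

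The share of genes with a start-site peak also differed between chromosomes. On chromosome 16, which carries Cldn1 and Pkp2 and 6 members in all, it was 53.8% in β-TC3, 18.7% in MV+ and 40.1% in RAG. On chromosome 18, which carries Dsg2, Dsc2 and Ctnna1, it was 53.8%, 20.5% and 38.3%, and on chromosome 2, which carries Ctnnd1, it was 45.7%, 22.1% and 34.0%. Cldn1 and Dsg2, with a start-site peak in β-TC3 alone, thus lay on chromosomes above the genome-wide β-TC3 share of 45.9%, and Ctnnd1 on one close to it. The part of the chromosome in these results was not tested.

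Motif letters were also counted in the 300 bases around summits. Here start-site peaks include those at the starts of neighbouring genes. SP/KLF letters were held by 14 of 18 such member peaks in β-TC3 (77.8%, beside 72.5% of all), 5 of 5 in MV+ (beside 76.5%) and 15 of 17 in RAG (88.2%, beside 77.9%). Near genes but away from start sites, AP-1 letters were held by 3 of 17 member peaks in β-TC3 (17.6%, beside 17.1%), 2 of 8 in RAG (25%, beside 28.9%) and 0 of 1 in MV+, where 47.4% of all such peaks held them. E-box letters were held by 6 of the 17 RAG start-site peaks (35.3%, beside 16.2%) and 4 of 18 in β-TC3 (22.2%, beside 16.6%), and by 0 of 8 RAG peaks away from start sites (beside 19.4%). SP/KLF letters were likewise at 0 of those 8 (beside 21.1%). TEAD letters (GGAATG) were at 3 of the 8 (37.5%, beside 20.3%). With so few member peaks, no count here was tested. TEAD letters were held by the shared Pkp2 intron site in each line, outside the stretch printed above, and by 23.7% of such MV+ peaks. HNF1 (GTTAATNAT) and FOX (TGTTTAC) letters were found at no member peak.

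The members without a peak within 10 kb were also read out to 50 kb. Of the 15, 12 had a peak between 10 and 50 kb from the gene in some line, beside 51.3% of the 7297 genes of the annotation without a peak within 10 kb. Such a peak at no coding start site was found for 7 of the 15, beside 33.7%, and 3 had no peak (Cldn18, Cldn23 and Dsc2). Downstream of Krt8, a site was called in all lines, 19184, 19216 and 19178 bp from the gene in β-TC3, MV+ and RAG, with 79, 52 and 68 fragments and fold enrichments of 5.47, 3.49 and 4.30. Downstream of Pkp3, a site 32668, 32672 and 32751 bp away was also called in all lines, with fold enrichments of 7.64, 5.34 and 4.13. Near Cldn8, the only peak was in MV+, 49329 bp downstream, with 109 fragments and a fold enrichment of 7.25. Cldn17, a claudin outside the members, had an MV+ other peak within 10 kb of that gene with the same fold enrichment, 7.25. Whether the Cldn8 and Cldn17 peaks are the same was not tested. Near Krt19, the only peak was in RAG, 27039 bp downstream, with 51 fragments and a fold enrichment of 4.39. Which gene such distant sites act on is not given by these data.

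Further genes of the same pathways were read in the same way, 53 genes in 6 lists. Start-site peaks were called at 20 of them in β-TC3 (37.7%, beside 45.9% of all genes), 18 in MV+ (34.0%, beside 21.2%) and 18 in RAG (34.0%, beside 35.7%). They were called at 11 in all lines (20.8%, beside 17.3%) and at 28 in none (52.8%, beside 50.0%). In RAG and over all lines these shares lay close to the background. The 18 genes of the polarity and junction scaffold list had most, with 12 in β-TC3, 12 in MV+ and 9 in RAG, and 7 of them in all lines, among them Cxadr, Magi1 and Prkci. Of 9 epithelial regulators, Grhl1 had a start-site peak in all lines, and Esrp1, Esrp2, Grhl2, Grhl3, Ovol1 and Ovol2 had none in any. Of 8 adherens junction genes, Pvrl2 and Vcl had one in all lines, while Cdh1, the gene of E-cadherin, and Cdh3 and Epcam had none in any. The 5 further claudins had none in any line, and of 7 further keratins 1 had one, Krt80 in RAG. Of 10 mesenchymal markers, 4 had a start-site peak in β-TC3 (Cdh2, Snai2, Zeb1 and Zeb2), 3 in MV+ (Snai2, Twist1 and Vim) and 1 in RAG (Vim), and the part of these genes in the counts above was not tested.

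Some calls turned on the limits used. In the equal-number set of β-TC3, the lowest pileup was 70, so the Dsg2 peak downstream of the gene (70 fragments) lay inside it, and the Pkp2 intron site (69) and the Jup start-site peak (67) lay just outside. In RAG the lowest was 41, so Ctnnb1 (46) lay inside and F11r (39) outside. No summit of a start-site peak was over 266 bp from a start (Cldn12 in RAG), and the nearest peaks beyond the 1 kb window were those of Tjp3 in RAG at 1293 bp and of Cldn6 in β-TC3 at 1568 bp.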

How the data were processed

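ATAC-seq was read in 3 cell lines, with 2 replicates of each. The authors trimmed reads with Trim Galore 0.4.1, aligned them to mm9 with Bowtie2 2.2.6 and called peaks with MACS2 2.1.1 on both replicates together, with no control library and a q-value cut of 0.05. The authors' pileup is a coverage signal that counts the fragments over a summit, is not scaled for depth and was not compared between lines as accessibility. The deposited fold enrichment is a ratio of pileup to the local background, each with 1 added. The authors' p-values and q-values are deposited as −log10 values and were used without change. Calls used whole fragments with no shift for Tn5, and whether duplicates had been removed beforehand is unclear, so intervals and floors cover counting error only. Mitochondrial fragments were in the input, which raises the background.

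Gene models were the protein-coding genes of GENCODE M1 on NCBIM37, and sequences came from that assembly. Peaks were read with Python 3.11.15, pandas 2.3.3, NumPy 2.4.6 and pysam 0.24.0, intervals were made with SciPy 1.17.1, and figures were drawn with Matplotlib 3.10.9. Peak placement was tested on simulated data, where 200 of 200 simulated peaks were placed correctly. A peak was assigned to every gene it overlapped within 10 kb. With 1 pooled call per line there was no test. Percentiles rank a peak by fold enrichment among all start-site peaks, or among all peaks within 10 kb of a gene and at no start site, of its line.

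The members, gene lists and motifs were chosen with earlier results of these data known. All members are accounted for. Full values are given for members whose start-site peaks differ between lines, for the strongest of each role, for the 5 members with most other peaks and for the strongest other peak of members with such peaks in 1 line. Sequences follow the start-site peaks in 1 line and the 2 strongest members shared by all lines. The F11r and intron sequences were chosen after their values were seen. Summits in an annotated UTR (Ctnnd1, Krt18) and members on chromosome 18 have no sequence printed. Of the marker genes, 1 was not found in the annotation. Alternatives were equal numbers of peaks by pileup or q-value, a q-value under 0.001, an equal floor of pileup relative to the fragments of the call, other windows and flanks, other start sites and placement by summit.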

Additional observations from a re-analysis of the deposited data

How the results depend on the processing

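Of 96 alternative counts, 78 stayed within 1.5 times the reported count and 18 did not. Part of the 78 could not change, so this tally does not measure stability. The flank does not enter the start-site counts. The equal-number sets are the whole MV+ call, and the equal floor kept all 28024 β-TC3 peaks. With an equal number of peaks by highest pileup, members with a start-site peak numbered 1 in β-TC3 (10 with all peaks), 4 in RAG (9) and 0 in all 3 lines (2), and those with another peak 7 in β-TC3 (17) and 6 in RAG (11). By smallest q-value the same counts were 2, 5, 1, 7 and 6. The count in all 3 lines was 1 with a q-value under 0.001, which lost Ctnnb1 in MV+, and 1 with the outermost start alone, where the Ctnnb1 peaks count as other peaks. A flank of 50 kb raised members with another peak to 30 in β-TC3, 18 in MV+ and 28 in RAG, and a flank of 5 kb lowered them to 2 in MV+. Without peaks at another gene's start site, an alternative chosen after seeing the data, they numbered 1 in MV+ and 5 in RAG. The 25 members with no start-site peak in any line, and the 3 with one in MV+, stayed within 1.5 times under every alternative run. These runs include the ones that could not change those counts. No paired analysis was possible because each line has a single pooled call, and no replicate could be left out for the same reason. No site under 25 fragments in β-TC3 or RAG, or under 30 in MV+, was called, so a missing peak does not show a closed site. MV+ had the highest of these floors and also the most fragments, 130955836.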

Other observations

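Genes of the further pathway lists, singled out here after their values were seen, showed a pattern that none of the 37 members had. It is rare over all genes (2.27%), so its absence among the members is not read as a contrast. Start-site peaks in β-TC3 and MV+ without RAG were called at 6 of the 53 genes (11.3%, beside 2.27% of all genes). These were Jam2 and Jam3, the relatives of JAM-A, Mpdz and Inadl, which encode multi-PDZ scaffolds of the tight junction, Pvrl3, which encodes the adhesion molecule nectin 3, and Klf5, a regulator of epithelial growth. Their fold enrichments in β-TC3 and MV+ were 2.81 and 2.97 at Jam2, 4.53 and 3.29 at Jam3, 5.97 and 5.14 at Mpdz, 4.79 and 3.43 at Inadl, 4.80 and 5.75 at Pvrl3, and 7.25 and 8.55 at Klf5. F11r, the gene of JAM-A itself, had its start-site peak in MV+ and RAG instead, so that each JAM gene lacked one in just 1 line. Jam2 and Inadl did have other peaks in RAG, up to fold enrichments of 6.75 and 5.22. The polarity gene Pard3 had start-site peaks in MV+ (5.21) and RAG (6.75), and Crb3, of the apical Crumbs complex, in β-TC3 alone (5.51), although other peaks near Crb3 reached 7.51 in MV+ and 4.73 in RAG.

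Pkp4, the relative of the desmosomal plakophilins, had a start-site peak in all lines, with fold enrichments of 6.38 in β-TC3, 5.14 in MV+ and 5.67 in RAG, where Pkp1 and Pkp3 had none. Grhl2, an activator of epithelial junction genes, had no start-site peak but 3 other peaks in β-TC3 alone, the strongest with a fold enrichment of 5.83. Perp, of desmosomes, had a start-site peak of 4.72 in RAG alone. None of these differences between lines was tested.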
